A study of Homo sapiens with 8 samples.

Results

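The genes described here are the microRNA (miRNA) genes outside the 14q32 miRNA cluster that were well covered in RNA-seq libraries of A549 cells, divided by the gene in which they lie. They are the rows of the count table with gene type miRNA in GENCODE 44 that are not on chromosome 14 between 100.7 and 101.1 Mb and whose raw counts summed over the 8 libraries came to at least 80. Of 58302 genes in the table, 1877 were miRNA genes, 1824 of these lay outside 14q32, 461 of those had at least 1 count, and 85 met the rule. For 41 of the 85, a protein-coding gene covered the miRNA gene on the same strand, and these are called hosted. The hosts were 32 genes, of which 7 held more than 1 of the miRNA genes. Of the other 44, 31 lay in a long non-coding RNA (lncRNA) gene only and 13 had no gene on the same strand. All positions are those of GRCh38.

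A549 is an established human lung adenocarcinoma line. In the study, the cells were transfected with a scramble control siRNA (siCTRL) or with an siRNA against APEX1, the gene of the DNA repair endonuclease APE1 (siAPEX1), and RNA was collected 72 h later. Each condition had 4 libraries of total RNA, made with a small-RNA kit whose protocol was changed to also capture primary miRNA transcripts, and read in single 100-base reads. The knockdown was transient, no other allele or agent is labelled, and the study calls its replicates biological without saying in the sources used here whether the 4 libraries of a group were separate cultures, so p-values measure the spread between these libraries.

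The libraries held 1348386 to 1949886 counts on genes, with every siAPEX1 library below every siCTRL library. APEX1 itself had 47 to 64 counts in the siCTRL libraries and 19470 to 27916 in those labelled siAPEX1. Read as APEX1 mRNA, this goes against what the label says. The kit captures small RNAs and the siAPEX1 cells had been given an siRNA against APEX1. Whether reads of that siRNA are among these counts was not tested. Directions below compare the libraries by their labels. Of 14 genes typical of A549 cells, including the keratins and aldo-keto reductases, all were in the table and 13 passed the filter on low counts. Of these 13, 7 were called lower, 3 higher and 3 not called by edgeR, beside 15.8% lower and 15.9% higher over all genes tested. KRT7, KRT8, KRT18 and KRT19 were among the lower, at log2 fold changes of -1.21, -1.01, -1.36 and -2.31. CDH1, AKR1B10 and AKR1C2 were the 3 called higher, at 0.92, 0.83 and 0.44. The summed level of the 14 genes was 1894 to 2120 CPM (counts scaled to a common library size) in the siCTRL libraries. It was 1605 to 1729 CPM in the siAPEX1 libraries, and the part of this in the miRNA changes was not tested. Of 13 markers of blood, endothelial, stromal and liver cells, none passed that filter, and CD3E, PECAM1 and HBA1 had no count. The summed level of these 13 markers was 5.81 to 11.1 CPM in the siCTRL libraries and 2.16 to 6.59 CPM in the siAPEX1 libraries.

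A miRNA is made from a longer primary transcript. The nuclear enzyme DROSHA cuts out a hairpin, the cytoplasmic enzyme DICER1 cuts the hairpin to a short duplex, and a strand of that duplex guides an Argonaute protein to mRNAs, which it recognises mainly through the seed, bases 2 to 8 of the mature miRNA. A miRNA gene in the intron of a protein-coding gene can be cut from the same transcript as the host mRNA, while miRNA genes that stand close together are often cut from a shared transcript. Because the counts are of reads over the whole miRNA gene, they do not separate the primary transcript, the hairpin and the mature miRNA.

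The mature sequences of the genes on which the results turn are given here from RefSeq (GRCh38.p14), 5′ to 3′, with the seed in capitals. RefSeq entries were matched by symbol for 80 of the 85 genes; MIR320A, MIR3609, MIR30B, MIR505 and MIR151A are the others. The first set shows seeds shared by genes with and without a protein-coding host, the miR-23 and the let-7 seeds.
miR-23a-3p: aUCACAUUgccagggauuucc
miR-23b-3p: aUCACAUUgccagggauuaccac
let-7a-5p: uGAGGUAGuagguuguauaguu
let-7e-5p: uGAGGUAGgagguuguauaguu
The next set shows neighbours on the genome, which share a seed in the case of miR-221 with miR-222 and of miR-15b with miR-16, and do not in the case of miR-183 with miR-182.
miR-221-3p: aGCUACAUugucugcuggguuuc
miR-222-3p: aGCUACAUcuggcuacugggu
miR-15b-5p: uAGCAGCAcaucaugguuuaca
miR-16-5p: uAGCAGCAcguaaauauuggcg
miR-183-5p: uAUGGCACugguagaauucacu
miR-182-5p: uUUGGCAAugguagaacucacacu
The last set shows the genes with the largest fold changes in each direction that have no gene on the same strand.
miR-3929: gAGGCUGAugugaguagaccacu
miR-4521: gCUAAGGAaguccugugcucag
miR-146b-5p: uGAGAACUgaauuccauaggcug

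The question of the comparison is how miRNA transcripts differed between the siAPEX1 and the siCTRL libraries, and whether a miRNA gene and its host differed in the same way. Fold changes (siAPEX1 against siCTRL) are log2 values from edgeR after scaling by trimmed mean of M-values (TMM), and a gene was called lower or higher at a Benjamini-Hochberg adjusted p of at most 0.05 over all 5368 genes tested, with edgeR's quasi-likelihood test. All 85 genes but MIR3613, whose total was 80, passed the filter on low counts. Of the 84 tested, 39 were called lower (46.4%) and 7 higher (8.33%), beside 15.8% lower and 15.9% higher over all genes tested. Their median log2 fold change was -0.34 and that of all genes tested was close to 0. With a further limit of 1 on the size of the log2 fold change, 6 of the 84 were lower and 2 higher. Both counts are near the shares of all genes tested, 5.68% and 3.6%. MIR130B, MIR3929 and MIR1229 are among the 6, and among the 39 called lower. They met the count minimum through their siCTRL counts, so the rule itself favours low fold changes for them. The CPM of the 2 groups did not overlap for 32 genes lower and 5 genes higher, beside 14.9% and 14.0% of all genes. Scaled by library size alone, which moves the median of all genes to -0.34, 61 were called lower and 3 higher, beside 36.2% and 6.33% of all genes tested. DESeq2 called 24 lower and 3 higher, beside 5.84% and 5.94% of the 7656 genes to which it gave an adjusted p, and 27 of the 46 genes called by edgeR were called in the same direction by DESeq2. The 85 genes took 2.25% to 2.72% of the counts in the siCTRL libraries and 1.34% to 1.69% in the siAPEX1 libraries, with no overlap. These are shares of raw counts, to which the shift of all genes by library size alone applies too.

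The hosted genes were more often lower than the others, without a test of that difference. Of the 41 hosted genes, 25 were called lower (61.0%) and 2 higher (4.88%), and the median log2 fold change was -0.42. Over all genes tested, 15.8% were called lower and 15.9% higher. Of the 43 tested genes without a protein-coding host, 14 were called lower (32.6%) and 5 higher (11.6%), with a median of -0.05. Among these, the 30 that lay in a lncRNA gene only had a median of -0.14, with 11 lower (36.7%) and 2 higher (6.67%). The 13 with no gene on the same strand had a median of 0.11, with 3 lower and 3 higher (23.1% each). Relative to the median of all genes, the medians of the hosted and the other genes were -0.42 and -0.05 with TMM factors. By library size alone they were -0.42 and -0.05 too. A change of scaling moves all genes by nearly the same amount, so this likeness was fixed by the method and is no check. Among the 84 genes, the log2 fold change was not related to the total count (Pearson's r = -0.001, across genes, which share the same libraries). With a minimum of 160 counts, however, the medians of the hosted and the other genes lay closer together, at -0.40 and -0.21.

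**Figure D1:**
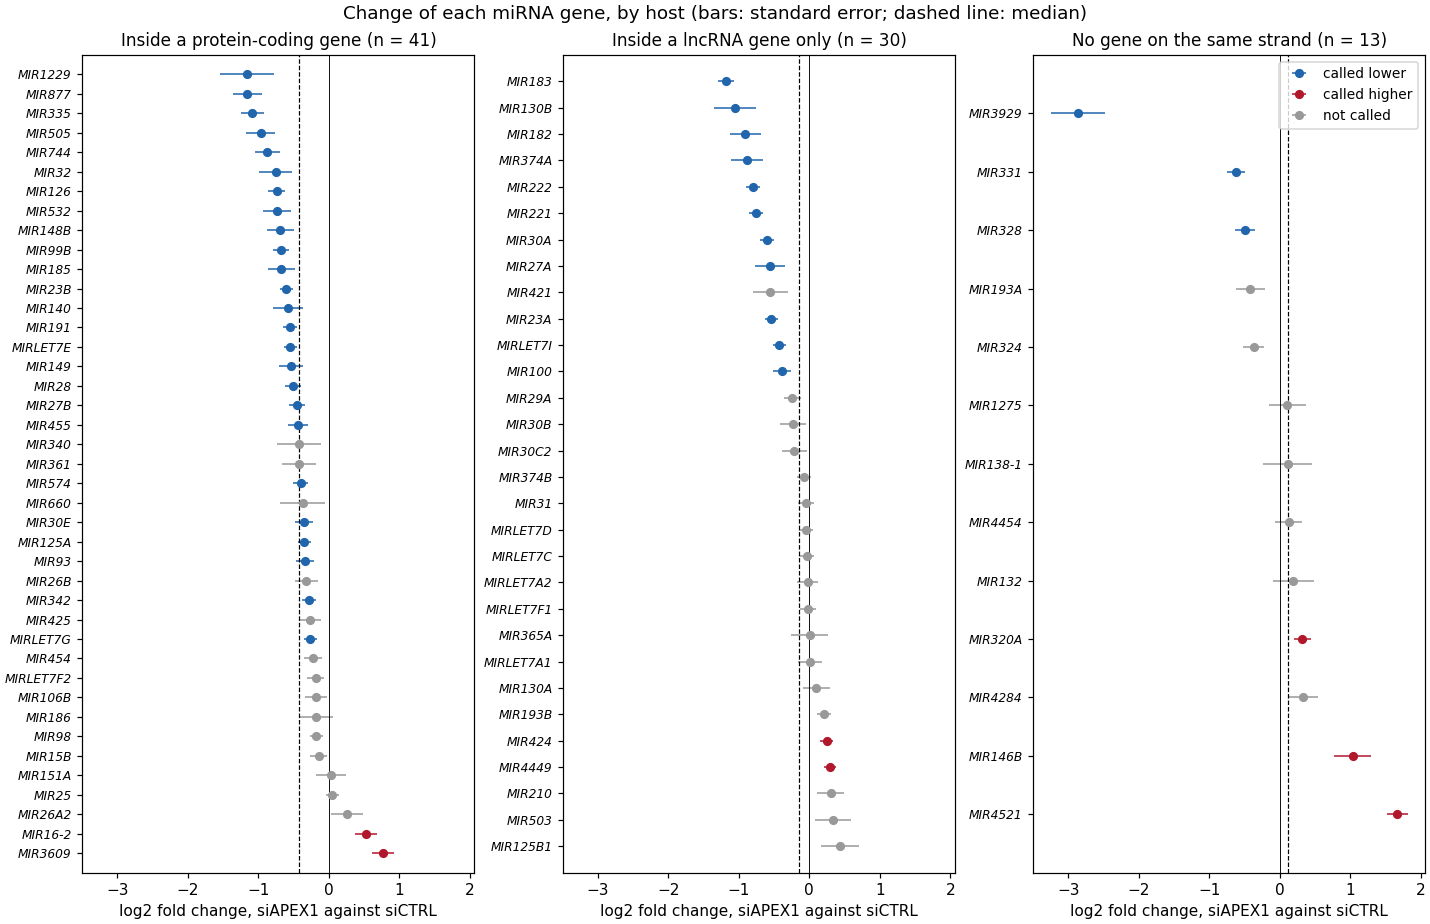
Log2 fold change of each tested miRNA gene (x axis, siAPEX1 against siCTRL) with its standard error, in 3 panels by the gene that holds it on the same strand. Blue points were called lower, red points higher and grey points not called, and dashed lines mark medians of -0.42, -0.14 and 0.11.

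Most of the counts came from few genes. The 4 genes with the most counts, MIR23B, MIR23A, MIRLET7E and MIR125A, held 45.2% of the 269695 counts of all 85 genes and the first 10 held 72.7%. All 4 were called lower. MIR23B (chromosome 9, 95085208 to 95085304, plus strand, in an intron of 3210 bases of AOPEP, an aminopeptidase gene) had 7828, 9365, 7990 and 6694 counts in the siCTRL libraries and 2611, 3529, 3435 and 3747 in the siAPEX1 libraries. These were 3970 ± 393 CPM and 2617 ± 378 CPM (SD, n = 4 each), with no overlap between groups and a log2 fold change of -0.60 ± 0.09 (SE, edgeR adjusted p = 1.6e-06). MIR23A (chromosome 19, 13836587 to 13836659, minus strand, overlapping an exon of the lncRNA gene MIR23AHG) carries the same seed and had 4818, 6128, 5137 and 4331 counts against 1767, 2279, 2362 and 2491. It was also lower in every siAPEX1 library, with a log2 fold change of -0.54 ± 0.09 (edgeR adjusted p = 9.8e-06). MIR27B and MIR27A, the neighbours of these genes within 10 kb, share a seed as well and were both called lower, at -0.45 and -0.56. The CPM of MIR27A overlapped between the groups. Its call was lost with DESeq2, with TMM factors from protein-coding genes and with the replicate block. The call was also lost without siCTRL replicate 2 (-0.15) or siAPEX1 replicate 1 (-0.37), 2 (-0.47) or 4 (-0.45).

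The hosted genes lay mostly in introns. For 39 of the 41 the whole miRNA gene was intronic, in introns of 69 to 117001 bases with a median of 3693, and the log2 fold change was not related to the log10 of the intron length (Pearson's r = -0.02, Spearman's rho = -0.10, 41 genes sharing the same libraries). MIR125A in SPACA6 and MIR93 in MCM7 overlapped an exon of a host transcript in GENCODE 44. The counting function of the aligner used does not count reads that overlap more than 1 gene. The annotation release used in counting is not given, so whether it held these exons is not known. MIR125A and MIR93 were both called lower, at -0.34 and -0.34, and the CPM of each overlapped between the groups. The call of MIR93 was lost with DESeq2, with RLE size factors, with TMM factors from protein-coding genes and with the replicate block. Leaving out siCTRL replicate 2 moved its log2 fold change to -0.12, without a call. The call was also lost without siCTRL replicate 1 (-0.35) or without siAPEX1 replicate 1 (-0.24), 2 (-0.23) or 4 (-0.38).

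The 2 genes that fill their whole intron had the lowest fold changes of the hosted genes. Such introns, known as mirtrons when they give a miRNA, start and end at the splice sites, so their hairpins were printed whole from RefSeq with the first 2 and last 2 bases in capitals. The hairpin of MIR877 lies on chromosome 6, 30584332 to 30584417, plus strand, in ABCF1, a translation factor gene, and that of MIR1229 on chromosome 5, 179798278 to 179798346, minus strand, in MGAT4B, an N-glycan branching enzyme gene.
MIR877: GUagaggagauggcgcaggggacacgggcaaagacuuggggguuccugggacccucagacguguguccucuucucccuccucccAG
MIR1229: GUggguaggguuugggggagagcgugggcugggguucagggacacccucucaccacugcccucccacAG
MIR877 had 55, 68, 60 and 35 counts in the siCTRL libraries and 13, 12, 22 and 15 in the siAPEX1 libraries. Every siAPEX1 library was lower, at a log2 fold change of -1.15 ± 0.21 (SE, edgeR adjusted p = 2.0e-05). MIR1229 had 15, 14, 17 and 18 counts against 0, 4, 8 and 6, again with no overlap in CPM, at a log2 fold change of -1.16 ± 0.38 (edgeR adjusted p = 0.017). ABCF1 was not called, at -0.15 ± 0.23, and MGAT4B was called lower, at -0.63 ± 0.19. The ratio of miRNA to host counts, described below, overlapped between the groups for both pairs (exact permutation p = 0.086 and 0.31). For MIR1229 to MGAT4B the log2 ratio was -5.21 in siAPEX1 replicate 1 and -2.12 to -1.34 in the other siAPEX1 libraries. MIR1229 reached 80 counts through its 64 in the siCTRL libraries, beside 18 in the siAPEX1 libraries, so the rule itself favours a low fold change for it. The call of MIR1229 was lost with DESeq2, without siAPEX1 replicate 1, the library with 0 counts (-0.75), and without siCTRL replicate 4 (-1.05).

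Other hosted genes with large changes were MIR335, in the imprinted gene MEST, with 70 to 104 counts in the siCTRL libraries and 20 to 28 in the siAPEX1 libraries, and MIR744, in the kinase gene MAP2K4, with 58 to 100 and 17 to 36. Their log2 fold changes were -1.08 ± 0.17 and -0.87 ± 0.18, and the CPM of neither overlapped between groups. MIR126, best known from endothelial cells, lies in an intron of 619 bases of EGFL7, a gene of a secreted vascular protein. It had 242, 281, 262 and 197 counts in the siCTRL libraries and 62, 113, 90 and 108 in the siAPEX1 libraries. MIR126 and EGFL7 were called lower together, at -0.74 ± 0.12 and -1.12 ± 0.31, while PECAM1, a defining endothelial marker, had no count in any library. DESeq2 did not call EGFL7.

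**Figure D2:**
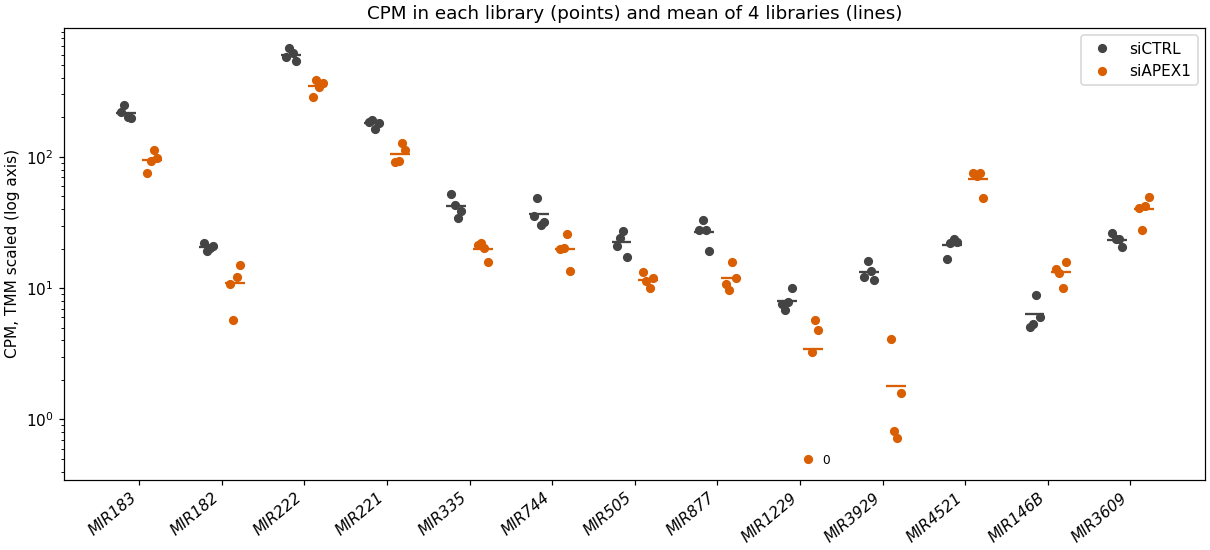
CPM with TMM factors on a log axis for 13 miRNA genes in each siCTRL library (grey points) and siAPEX1 library (orange points), with lines at the mean of 4 libraries. The point marked 0 for MIR1229 is a library with no count, drawn at the foot of the axis. For the genes on the left the orange points lie below the grey ones, and for MIR4521, MIR146B and MIR3609 above them.

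The hosts did not move with their miRNA genes as a group. Of the 32 hosts, 22 passed the filter on low counts, and the 32 together took 0.044% to 0.049% of the counts in the siCTRL libraries and 0.034% to 0.039% in the siAPEX1 libraries. The 22 tested hosts had a median log2 fold change of 0.03, with 4 called lower (18.2%) and 3 higher (13.6%). Both are near the shares over all genes tested, 15.8% lower and 15.9% higher. DESeq2 called none of these 7 hosts. The 27 miRNA genes in these hosts are among the 41 with a median of -0.42. Of the 27 pairs, 11 had a miRNA gene called lower and a host not called, 3 had both lower, 1 had both higher and 1 had the miRNA gene lower and the host higher. In 14 pairs the fitted change was negative for the miRNA gene and positive for the host, in 3 the reverse, in 8 both were negative and in 2 both were positive. Across the 27 pairs the changes had a Pearson's r of 0.20 and a Spearman's rho of 0.22, and across the 22 hosts, with the median of the miRNA genes of each, an r of 0.12. Leaving out the 2 hosts with values farthest from the median gave an r of 0.26 over 25 pairs. These are descriptions across genes measured in the same libraries, and hosts with few counts add scatter of their own.

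**Figure D3:**
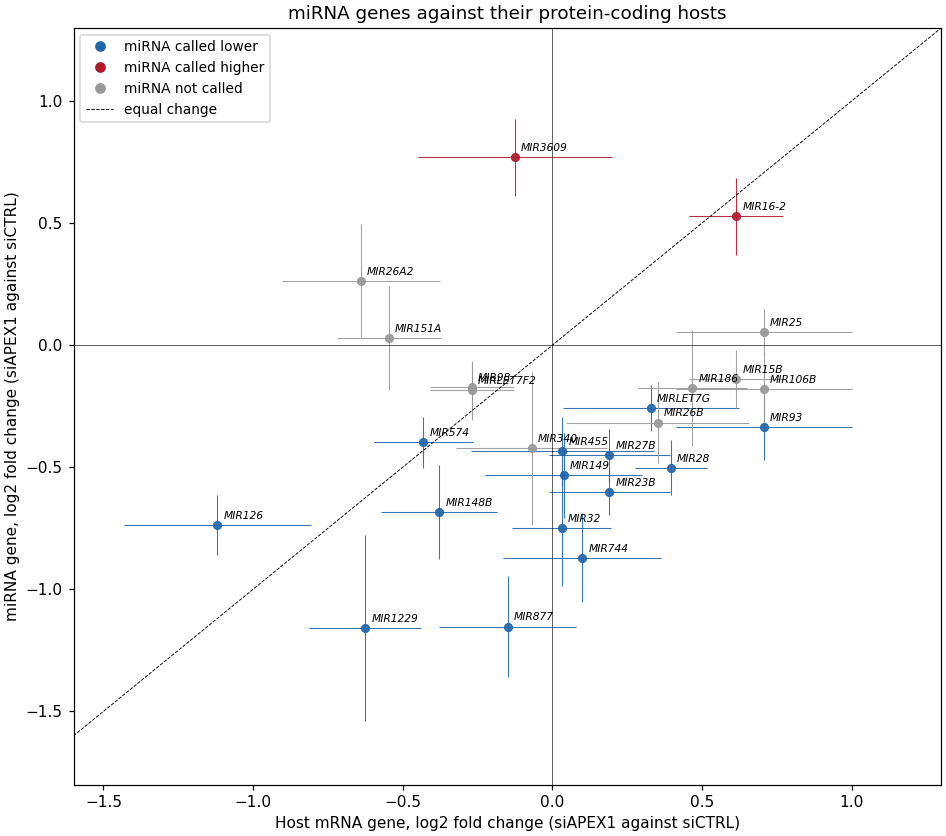
Log2 fold change of the miRNA gene (y axis) against that of its protein-coding host (x axis), siAPEX1 against siCTRL, for 26 of the 27 pairs with a tested host, with standard errors. The dashed line marks equal change; 19 of the 26 points lie below it, and 13 lie at the lower right, with a lower miRNA gene and a higher host.

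The ratio of miRNA to host counts in a library does not depend on how libraries are scaled. It was computed as log2 of the counts with 0.5 added to each, and the 2 groups were compared by an exact permutation test over the 70 labelings of 4 libraries against 4, two-sided, for which 0.0286 is the smallest p possible. In 6 of the 27 pairs the ratio was lower in every siAPEX1 library than in any siCTRL library, and in 0 it was higher in every siAPEX1 library. For each of the 6 the exact permutation p was 0.0286, unadjusted over the 27 pairs. The median difference of the 27 pairs was -0.64, and 20 differences were negative. The number of pairs with a lower ratio and no overlap rested on single libraries, and was 12 without siCTRL replicate 4 and 11 without siAPEX1 replicate 3, where 0.0571 is the smallest p possible. With 41 pairs, including 14 whose host did not pass the filter, 8 ratios were lower without overlap and 0 higher.

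The pairs with lower ratios had hosts that were not called or called higher. MIR28 lies in an intron of 98422 bases of LPP, a gene of a focal adhesion protein. The log2 ratio of MIR28 to LPP was 1.57, 1.49, 1.26 and 1.40 in the siCTRL libraries and 0.05, 0.91, 0.59 and 0.49 in the siAPEX1 libraries, a difference of -0.92. LPP was called higher at 0.40 ± 0.12 (edgeR adjusted p = 0.010) and MIR28 lower at -0.50 ± 0.11, the only pair of the 27 called in opposite directions. LPP was not called with library size alone (0.06), with DESeq2 or without the filter on low counts. MIR23B to AOPEP differed by -0.80, MIR15B to SMC4 by -0.76, MIR32 to TMEM245 by -0.75 and MIR149 to GPC1, a cell surface proteoglycan gene, by -0.55. Among the pairs with an untested host, MIR185 to TANGO2 differed by -1.63 and MIR140 to the ubiquitin ligase gene WWP2 by -1.08 without overlap. The edgeR calls of MIR32, MIR149, MIR185 and MIR140 as single genes were lost with DESeq2. The calls were also lost for MIR32 without siAPEX1 replicate 3 (-0.68) or 4 (-0.65), and for MIR149 without siCTRL replicate 2 (-0.44) or siAPEX1 replicate 2 (-0.48), 3 (-0.50) or 4 (-0.49). For MIR140 leaving out siCTRL replicate 1 (-0.54) or 2 (-0.38) or siAPEX1 replicate 1 (-0.52), 2 (-0.51) or 4 (-0.50) ended the call. TMM factors from protein-coding genes ended the call of MIR140 too. Other pairs kept close ratios: MIR98 and MIRLET7F2, in the ubiquitin ligase gene HUWE1, differed from it by 0.10 and 0.10, and MIR574 from FAM114A1 by 0.01, all with overlap.

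**Figure D4:**
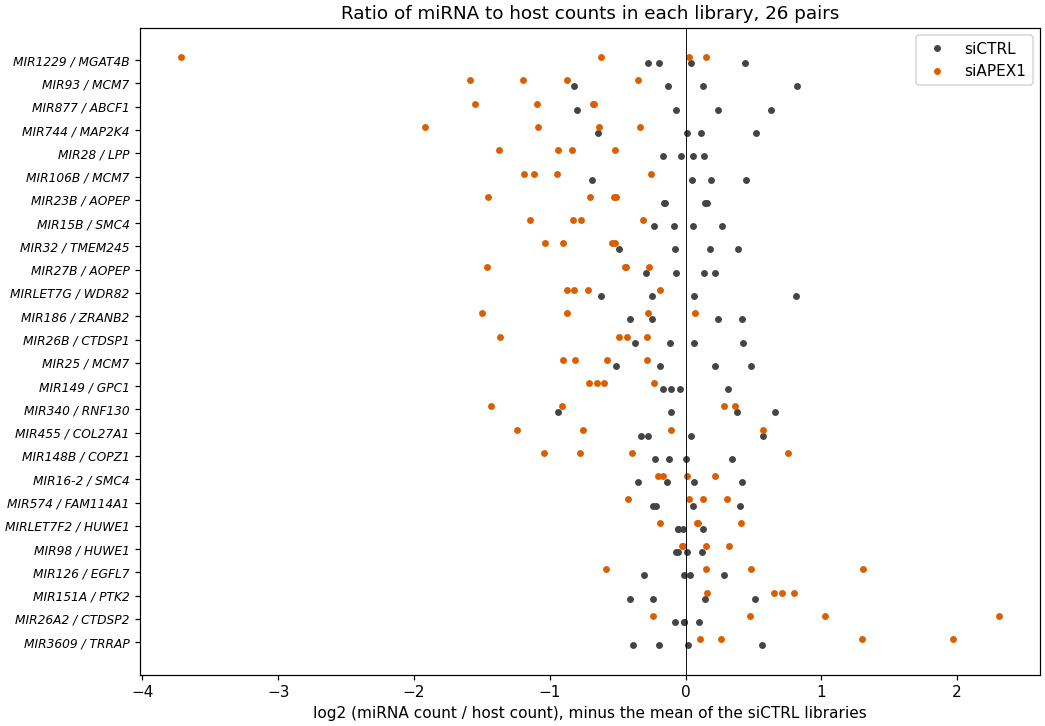
Log2 ratio of miRNA to host counts in each library, minus the mean of the 4 siCTRL libraries, for 26 of the 27 pairs with a tested host, sorted by the difference between the groups (grey points siCTRL, orange points siAPEX1). In 5 of these 26 pairs every siAPEX1 point lies below every siCTRL point, and in no pair does every siAPEX1 point lie above.

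Small nucleolar RNA (snoRNA) genes, which also lie in introns and guide the modification of other RNAs, gave a different picture. In 84 pairs of snoRNA genes and tested hosts chosen by the same count minimum, the ratio was higher without overlap in 45 (53.6%) and lower in 0, with a median difference of 0.57, beside -0.64 for the miRNA genes. Whether the 2 classes of RNA differ beyond chance was not tested, and both sets share libraries. Among the miRNA genes in lncRNA genes, 7 pairs had a tested lncRNA host, with differences from -1.27 to -0.23, and for 1 of them, MIR374A in FTX, the groups did not overlap, at -1.27. The lncRNA genes themselves were thinly covered, since 4 of 18 passed the filter.

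Genes that stand close together were compared with each other. Of the 85 genes, 31 lay within 10 kb of another of them on the same strand, in 14 clusters. In 5 clusters every member was called lower, in 4 none was called and in 5 only some were called. MIR183 and MIR182, on chromosome 7 from 129770383 to 129775014, minus strand, belong to a cluster best known from sensory cells. MIR183 had 435, 518, 433 and 355 counts in the siCTRL libraries and 91, 115, 158 and 124 in the siAPEX1 libraries, at 217 ± 24.8 and 95.2 ± 16.1 CPM (SD, n = 4 each). MIR182 had 44, 40, 44 and 38 counts against 13, 7, 17 and 19. Both were lower in every siAPEX1 library, at -1.18 ± 0.11 and -0.91 ± 0.22, and the ratio of MIR183 to MIR182 overlapped between groups.

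MIR222 and MIR221, on the X chromosome from 45746157 to 45747124, minus strand, share a seed and are known to act on the cell cycle inhibitor CDKN1B. MIR222 had 1158, 1389, 1328 and 970 counts against 349, 476, 476 and 459, and MIR221 had 365, 397, 352 and 329 against 112, 115, 176 and 141. Their log2 fold changes of -0.80 ± 0.10 and -0.76 ± 0.10 (edgeR adjusted p = 7.4e-09 and 1.9e-07) were close, and the difference of their log2 ratio between the groups was -0.03. MIRLET7E, MIR99B and MIR125A, in SPACA6 on chromosome 19, were called lower at -0.54, -0.68 and -0.34. Here the ratios moved within the cluster: that of MIRLET7E to MIR125A was 0.334 to 0.601 in the siCTRL libraries and 0.160 to 0.331 in the siAPEX1 libraries, on the log2 scale and with a narrow gap, and that of MIR125A to MIR99B was higher by 0.34 without overlap.

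The SMC4 intron held the cluster whose members parted most, with a difference of 0.67 between their log2 fold changes. SMC4 encodes a condensin subunit, and MIR15B and MIR16-2 lie in the same intron of 7415 bases. MIR15B had 149, 144, 151 and 117 counts in the siCTRL libraries and 57, 85, 99 and 83 in the siAPEX1 libraries, and was not called, at -0.14 ± 0.12. MIR16-2 had 43, 71, 71 and 37 counts against 43, 47, 56 and 57, and was called higher at 0.53 ± 0.16 (edgeR adjusted p = 0.0088), as SMC4 was at 0.61 ± 0.16. With library size alone these were 0.19 and 0.27 and neither was called, nor was either called by DESeq2. Without the filter on low counts MIR16-2 was not called. The log2 ratio of MIR15B to MIR16-2 was 1.78, 1.02, 1.08 and 1.65 in the siCTRL libraries and 0.40, 0.85, 0.82 and 0.54 in the siAPEX1 libraries, with no overlap (exact permutation p = 0.0286, 1 of 3 such among 20 neighbour pairs compared). The mature miR-16-5p is identical in sequence to that of MIR16-1, so reads of the mature miRNA cannot be assigned to either gene.

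Of the 144 mature sequences of the 80 matched genes, 17 seeds were carried by more than 1 gene, and 36 genes carried such a seed. The let-7 seed, GAGGUAG, whose miRNAs are known to restrain RAS and LIN28, was on 10 of them. Of these, MIRLET7E, MIRLET7I and MIRLET7G were called lower and 7 were not called, and the log2 fold changes ran from -0.54 to 0.01. MIRLET7I had 2643, 2981, 2854 and 2252 counts against 998, 1284, 1321 and 1449 and was lower in every siAPEX1 library in CPM, at -0.43 ± 0.09. The call of MIRLET7G, at -0.26, was lost without siAPEX1 replicate 1 (-0.15) or 3 (-0.21) and without siCTRL replicate 1 (-0.25), 2 (-0.23) or 3 (-0.25). With TMM factors from protein-coding genes it was lost as well. The cluster of MIRLET7A1, MIRLET7F1 and MIRLET7D, without a protein-coding host, lay between -0.05 and 0.01. The genes of the miR-15 seed, AGCAGCA, were the only ones with a shared seed to be called higher, MIR16-2 at 0.53 and MIR424 at 0.24. MIR424 changed sign, to -0.10, with scaling by library size alone. Its call was lost with DESeq2, without the filter on low counts, and without siAPEX1 replicate 4 (0.24) or siCTRL replicate 3 (0.20) or 4 (0.19). For 10 of the genes a mature sequence was identical to that of another gene, let-7a and let-7f among them. Reads of such a mature miRNA cannot be assigned to either gene. The absence of a call for MIRLET7A1, MIRLET7A2, MIRLET7F1 and MIRLET7F2 therefore does not describe mature let-7a-5p or let-7f-5p.

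**Figure D5:**
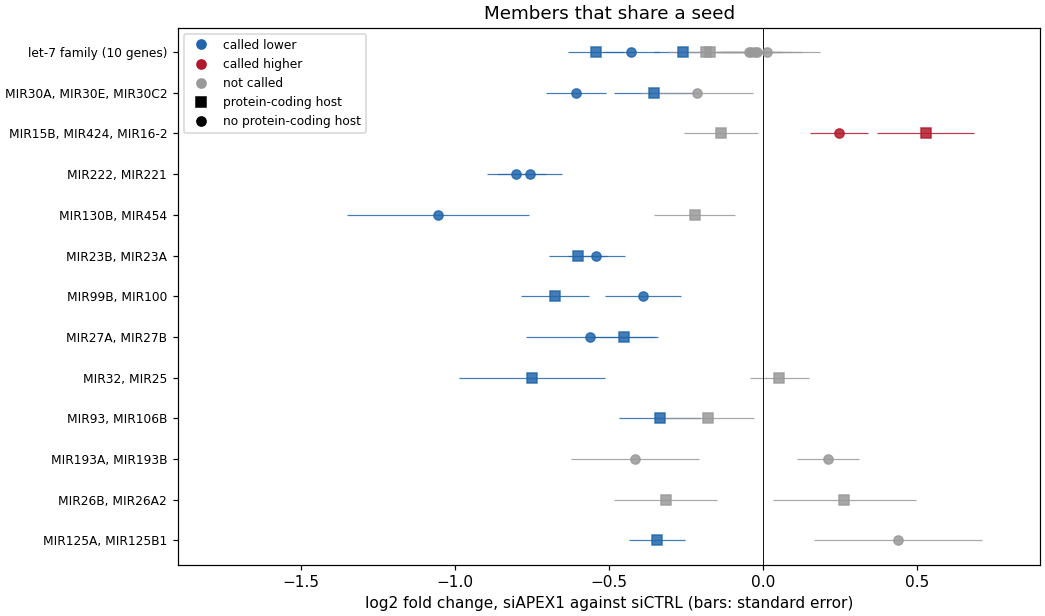
Log2 fold changes (x axis, siAPEX1 against siCTRL, bars standard errors) of the miRNA genes that share a seed, a row for each seed, with 4 seeds of the other arm of the same genes left out. Squares have a protein-coding host and circles do not; in the let-7 row 3 of 10 genes were called lower, at -0.54, -0.43 and -0.26.

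The genes with no gene on the same strand held the extremes in both directions. MIR3929 (chromosome 18, 35934088 to 35934142, minus strand) had 24, 33, 29 and 21 counts in the siCTRL libraries and 5, 1, 1 and 2 in the siAPEX1 libraries, with no overlap and a log2 fold change of -2.86 ± 0.38 (edgeR adjusted p = 7.2e-08). MIR3929 met the count minimum through its 107 counts in the siCTRL libraries, beside 9 in the siAPEX1 libraries. The rule itself therefore favours a low fold change for MIR3929. MIR4521 (chromosome 17, 8186945 to 8187004, plus strand) had 33, 46, 51 and 41 counts against 92, 88, 105 and 61. In CPM this was 21.3 ± 3.2 and 67.8 ± 13.1 (SD, n = 4 each), a log2 fold change of 1.67 ± 0.15 (edgeR adjusted p = 4.0e-12). The first 3 bases of MIR4521 are shared with the tRNA gene TRS-GCT4-3 in RefSeq, and the part of tRNA reads in its counts was not tested.

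MIR146B, a miRNA induced in NF-kB signalling, had 10, 11, 19 and 11 counts against 17, 16, 14 and 20, which overlap as counts and not as CPM, and was called higher at 1.04 ± 0.26, which DESeq2 did not call. MIR320A, with 87 to 131 counts in the siCTRL libraries and 78 to 91 in the siAPEX1 libraries, was called higher at 0.32 with overlapping CPM and was at -0.02 by library size alone. The call of MIR320A was lost with DESeq2 and without the filter on low counts. It was also lost without siAPEX1 replicate 1 (0.34) or 2 (0.32) or siCTRL replicate 1 (0.24) or 3 (0.29). MIR4449, in the lncRNA gene DANCR, was called higher at 0.30 and changed sign, to -0.04, by library size alone. Without the filter on low counts MIR4449 was not called. MIR3609, in TRRAP, was higher in every siAPEX1 library in CPM, at 0.77 ± 0.16, and 33 of its bases are shared with the small Cajal body RNA gene SCARNA28 in RefSeq, whose part in these counts was not tested. MIR331 and MIR328 were called lower, at -0.62 and -0.50, the latter not by DESeq2 or without siAPEX1 replicate 2 (-0.36). MIR130B, in a lncRNA gene and with the seed of MIR454, had 24, 26, 31 and 18 counts against 12, 9, 3 and 6, at -1.06 ± 0.30. MIR130B met the count minimum through its 99 counts in the siCTRL libraries, beside 30 in the siAPEX1 libraries. The rule itself therefore favours a low fold change for MIR130B. Its call was lost with DESeq2 and without siAPEX1 replicate 3 (-0.73).

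The minimum of 80 counts cut between genes of similar totals. MIR339, MIR24-2 and MIR345, each with 79 counts, fell outside, with log2 fold changes of -0.71, -0.45 and -0.45, and MIR3613, MIR138-1, MIR1229 and MIR660, with 80, 81, 82 and 88, fell inside. For 7 of the genes that met the rule, MIR130B, MIR3929, MIR340, MIR660, MIR1229, MIR138-1 and MIR3613, doubling the sum of the lower group, siAPEX1 in each case, would not have reached 80. The rule selects on the sum of both groups, so genes that are low in either group need a high level in the other.

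Outside 14q32, 366 miRNA genes lie in an exon of another gene on the same strand in GENCODE 44 and 1458 do not. At least 1 count was seen for 12.6% of the former and 28.5% of the latter, while 4.92% and 4.60% reached 80 counts, 18 of the 85 genes among the former. Neither difference was tested. MIR21, in an exon of VMP1, and MIR17 and MIR92A1, in MIR17HG, had 0 counts in all 8 libraries; these were named after their values were seen. Reads that overlap more than 1 gene are not counted by the counting function of the aligner used, so a count of 0 does not show that these miRNAs were absent. MIR374B, which shares 70 bases with MIR374C on the opposite strand, had 402 to 993 counts a library, and MIR374C had 1 count in all 8.

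The miRNA genes of 14q32 that reached 80 counts were lower than these. Of 13 such genes, 12 were tested and 11 were called lower, and the median log2 fold change was -1.24, beside -0.34 for the genes outside. The difference between these medians was not tested.

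Of 30 genes of miRNA biogenesis, 18 were tested. Of these, 2 were called lower, 3 higher and 13 not called, beside 15.8% lower and 15.9% higher over all genes tested. Both counts are near those shares. The median of the 18 log2 fold changes was 0.03. The helicase gene DDX17, a partner of DROSHA, was lower at -0.50, and HNRNPA1, which binds some primary miRNAs, at -0.46. DICER1 had 44, 36, 38 and 28 counts against 45, 43, 58 and 57, which in CPM rose without overlap, at 1.13 ± 0.16. The exonuclease gene XRN1 was higher at 0.63 and the Argonaute partner TNRC6B at 0.43. DROSHA was tested and not called, at 0.03 ± 0.34.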

How the data were processed

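RNA-seq of A549 cells gave 4 siCTRL and 4 siAPEX1 libraries. The authors trimmed the reads, aligned them to GRCh38 with STAR 2.5.3a and deposited raw counts per gene from its GeneCounts function; the annotation release and strand setting are not given in the sources used here. GENCODE 44 matched 57532 of the 58302 identifiers. Counts were scaled by TMM and tested by quasi-likelihood in edgeR 4.0.16 (R 4.3.3). P-values were adjusted by Benjamini-Hochberg over the 5368 genes that filterByExpr kept (minimum count 10, minimum total 15). Standard errors were derived from the fold change and its F statistic. Ratios used exact permutation. DESeq2 1.42.0 was an alternative. The libraries' 1348386 to 1949886 counts limit precision for low genes. SDs and standard errors cover the spread between libraries.

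Genes named are those called, the 15 with most counts, those within 10 kb of another, those that overlap a gene or fill an intron, their hosts, those near the 80-count minimum, APEX1 and the biogenesis list. Members and lists were chosen with earlier results of these data known, and the ratios between neighbours and to lncRNA hosts were added after seeing the data. A column named N3 for siCTRL replicate 3 was matched to the sample labelled replicate 3. The values of 1 of the 27 pairs are not reported here singly, though the pair is in the counts and medians.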

Additional observations from a re-analysis of the deposited data

Results flagged for a closer look

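In groups of 4 libraries, 6 of 170 groups of CPM values held a library far from the other 3, and chance flags about 1 in 20 groups. MIR23A was at 2968 CPM in siCTRL replicate 2, beside 2381 to 2423 in the other siCTRL libraries. MIRLET7E was at 2048 CPM in siCTRL replicate 4, beside 2401 to 2420. MIR324 was at 65.9 CPM in siCTRL replicate 2, beside 40.95 to 44.03. MIR32 was at 12.2 CPM in siCTRL replicate 4, beside 15.01 to 15.59. MIR4521 was at 48.5 CPM in siAPEX1 replicate 4, beside 71.4 to 75.8, and that library was still above every siCTRL library. MIR140 was at 17.3 CPM in siAPEX1 replicate 3, beside 12.7 to 13.2.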

How the results depend on the processing

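Of the 46 called genes, 25 were called in the same direction under all 14 alternatives of the fit (23 lower, 2 higher). DESeq2 called 24 lower and 3 higher, no filter 3 higher, and library size alone 61 lower and 3 higher, with medians of -0.76 for hosted and -0.39 for other genes. With at least 160 counts the median of the genes without a protein-coding host was -0.21, beside -0.40 for the hosted genes. Leaving out each library gave 30 to 39 lower, 5 to 7 higher, hosted medians of -0.47 to -0.31, medians of the others of -0.15 to 0.03, correlations of 0.13 to 0.24 and 6 to 12 lower ratios. By library size alone MIR4449 (-0.044), MIR424 (-0.10), MIR320A (-0.019), MIR193B (-0.13), MIR210 (-0.038) and MIR25 (-0.29, and -0.042 with no filter) changed sign, and TMM factors from protein-coding genes moved MIRLET7A2 to 0.017, MIRLET7C to 0.0037 and MIRLET7F1 to 0.021. Leaving out libraries moved MIR15B between -0.18 and 0.0029, MIR210 between -0.13 and 0.54, MIR25 between -0.0034 and 0.16, MIR31 between -0.14 and 0.11, MIR374B between -0.12 and 0.040, MIRLET7A2 between -0.13 and 0.11, MIRLET7C between -0.11 and 0.086, MIRLET7D between -0.12 and 0.060 and MIRLET7F1 between -0.10 and 0.060. The cause was not tested. With the replicate number as a block, 36 genes were called lower and 7 higher; same-numbered libraries correlated at -0.037 to -0.0035, so the numbers do not pair them.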
